A study of Mus musculus with 10 samples.

Results

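The replication-dependent histone genes are the genes that supply the bulk of histone protein while DNA is copied. They were taken as the protein-coding genes on chromosomes 3, 11 and 13 whose symbols follow the H1f, H2ac, H2bc, H3c and H4c series or its older Hist names. This choice used gene names and positions and no measured value. It gave 63 genes of 21887 protein-coding genes: 6 of type H1, 17 of type H2A, 16 of type H2B, 12 of type H3 and 12 of type H4. No gene on chromosome 11 met it in the gene table. On mm10, the first chromosome 13 cluster (chr13:21715711-22043658, 328 kb) held 22 of the genes, the second (chr13:23531044-23934913, 404 kb) held 31, and the chromosome 3 cluster (chr3:96219885-96270192, 50.3 kb) held 10. The genes had a median length of 492 bp, from 375 to 37455 bp, and 58 were no longer than 1000 bp.

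The measurements came from retinas of C57BL/6 mice at postnatal day 28. Cells positive for Glast, the glutamate transporter encoded by Slc1a3 and a marker of Müller glia, the radial support cells of the retina, were isolated and fixed. Chromatin of 25000 cells per immunoprecipitation was sequenced for 4 histone marks in 2 experiments, Exp1 and Exp2, with 1 input library each. All libraries came from this 1 cell population, and the labels name no other genotype, treatment or age. Nothing states whether Exp1 and Exp2 used different animals, so their spread may be technical. With 2 experiments, the results below are counts and levels with no test.

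Replication-dependent histone genes are short, lack introns and give mRNAs that end in a stem-loop in place of a poly(A) tail. Their transcription and their mRNA rise in S phase, under the histone-locus factor Npat, and the stem-loop binding protein Slbp guides their processing and translation. H2A, H2B, H3 and H4 form the nucleosome core, and H1 binds the linker DNA between cores. H3K4me3 is the usual mark of active or poised promoters, H3K4me1 of enhancers and promoter flanks, H3K27me3 of Polycomb repression and H3K9me3 of heterochromatin. Müller glia in the adult mouse retina are largely out of the cell cycle.

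The authors' lists gave islands, regions enriched for a mark, each with a deposited p-value. The lists held 16761 and 20169 islands for H3K4me3 in Exp1 and Exp2, 52342 and 37200 for H3K4me1, 7743 and 4105 for H3K27me3, and 9690 and 5621 for H3K9me3. Island edges fell every 200 bp for the H3K4 marks, every 5000 bp for H3K27me3 and every 3000 bp for H3K9me3. The read depth is unknown. The labelled cell type was set against marker genes: H3K4me3 lay over 7 of 7 Müller glia genes, including Slc1a3, by which the cells were isolated, but also over 4 of 4 rod genes and 2 of 3 ganglion cell genes, and not over Aif1 of microglia, Pecam1 of endothelium or Rpe65 of pigment epithelium. H3K27me3 lay over 2 of 7 Müller glia genes (Sox9 and Rlbp1), 2 of 4 rod genes, 3 of 3 ganglion cell genes and Rpe65. H3K4me1 lay over 6 of 7 Müller glia genes, without Slc1a3, but also over 4 of 4 rod genes, 3 of 3 ganglion cell genes and Pecam1. It was absent from Aif1 and Rpe65. H3K9me3 lay over Rpe65 alone among these marker genes. All 4 genes of dividing cells tested, Mki67, Top2a, Ccnb1 and Cdk1, had H3K4me3 and H3K4me1 and no H3K27me3. The part of other cell types in the results below was not tested.

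RefSeq promoter entries (GRCm38.p6, the assembly named mm10; 250 bases before to 50 after the start site) matched 58 of the 63 genes. The following 7 are printed 5′ to 3′ because the results below turn on them. Capitals mark matches, on either strand, to the TATA box (TATAAA), to the CCAAT box and to the octamer (ATTTGCAT). They also mark the exact string AAACACAAA, searched for the H1 box. H2bc8 (chr13:23571150-23571449, plus strand) is the H2B side of an H2A-H2B pair. H1f4 (chr13:23622509-23622808, minus strand) and the testis gene H1f6 (chr13:23695561-23695860, plus strand) stand at either end of the H1 genes in H3K4me3 cover. H2bc1 (chr13:23934107-23934406, minus strand) is the testis H2B gene. H4c2 (chr13:23756687-23756986, plus strand) had one of the narrowest H3K4me3 islands, and H4c17 (chr13:21811496-21811795, plus strand) and H4c18 (chr13:21832148-21832447, minus strand) are near-identical copies within an H3K27me3 island.
H2bc8: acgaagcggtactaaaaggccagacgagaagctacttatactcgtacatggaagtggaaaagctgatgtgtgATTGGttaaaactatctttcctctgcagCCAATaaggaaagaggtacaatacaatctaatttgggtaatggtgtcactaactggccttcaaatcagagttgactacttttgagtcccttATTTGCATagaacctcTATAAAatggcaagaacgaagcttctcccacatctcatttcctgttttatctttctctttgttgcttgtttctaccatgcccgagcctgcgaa
H1f4: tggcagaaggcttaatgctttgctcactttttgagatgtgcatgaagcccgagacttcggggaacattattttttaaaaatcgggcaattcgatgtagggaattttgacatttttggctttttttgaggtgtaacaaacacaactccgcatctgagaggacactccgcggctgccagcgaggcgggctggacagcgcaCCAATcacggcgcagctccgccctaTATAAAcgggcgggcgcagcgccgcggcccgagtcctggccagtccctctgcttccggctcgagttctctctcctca
H1f6: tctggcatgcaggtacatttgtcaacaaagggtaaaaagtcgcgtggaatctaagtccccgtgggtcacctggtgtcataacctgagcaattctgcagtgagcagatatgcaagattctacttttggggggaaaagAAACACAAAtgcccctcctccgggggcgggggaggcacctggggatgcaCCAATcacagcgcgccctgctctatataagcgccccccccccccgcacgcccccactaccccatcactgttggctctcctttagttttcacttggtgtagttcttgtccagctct
H2bc1: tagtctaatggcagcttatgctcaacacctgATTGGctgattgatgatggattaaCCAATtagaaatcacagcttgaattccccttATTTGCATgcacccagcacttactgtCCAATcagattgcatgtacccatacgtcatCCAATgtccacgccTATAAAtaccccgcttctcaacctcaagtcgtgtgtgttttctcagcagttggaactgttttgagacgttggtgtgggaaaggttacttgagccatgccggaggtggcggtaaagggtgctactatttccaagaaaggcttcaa
H4c2: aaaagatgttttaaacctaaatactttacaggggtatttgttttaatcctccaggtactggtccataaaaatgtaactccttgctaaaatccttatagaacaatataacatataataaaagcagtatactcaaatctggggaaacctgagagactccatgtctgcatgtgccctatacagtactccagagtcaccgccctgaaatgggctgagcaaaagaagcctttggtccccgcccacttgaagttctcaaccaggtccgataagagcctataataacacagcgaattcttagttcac
H4c17: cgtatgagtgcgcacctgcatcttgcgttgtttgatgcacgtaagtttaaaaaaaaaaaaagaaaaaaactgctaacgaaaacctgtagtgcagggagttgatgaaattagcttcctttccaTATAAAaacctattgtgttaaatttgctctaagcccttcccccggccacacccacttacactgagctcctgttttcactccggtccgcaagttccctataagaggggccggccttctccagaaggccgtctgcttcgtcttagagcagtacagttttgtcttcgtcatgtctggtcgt
H4c18: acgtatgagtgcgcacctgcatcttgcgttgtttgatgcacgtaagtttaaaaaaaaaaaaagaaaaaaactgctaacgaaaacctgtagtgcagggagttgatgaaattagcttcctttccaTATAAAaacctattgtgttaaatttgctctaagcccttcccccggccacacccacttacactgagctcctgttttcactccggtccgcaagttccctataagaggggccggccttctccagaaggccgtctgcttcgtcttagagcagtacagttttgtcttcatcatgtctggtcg

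These 4 motifs stand for elements that textbook histone promoters are known for. A match here is a description of the letters and not of a bound site. TATAAA was present in 34 of 58 member promoters (58.6%), against 13.3% of all 17492 promoters of the same length. CCAAT was present in 50 of 58 (86.2%), against 39.2% of all promoters. The CCAAT matches split by type: all 47 promoters of H1, H2A, H2B and H3 genes held one, and 3 of 11 H4 promoters did, those of H4c4, H4c3 and H4c1. The octamer, known as the Oct1 site of H2B promoters, was present in 12 of 58 promoters (20.7%) against 1.72% of all. It was found in 6 of 14 H2B and 6 of 17 H2A promoters and in no H1, H3 or H4 promoter. All H2B matches read in the direction of their gene, and all H2A matches read against it. The octamers of H2ac12, H2ac8 and H2ac1 are the same sites as those of H2bc12, H2bc8 and H2bc1, counted for both genes. The exact string AAACACAAA, searched for the H1 box, was found in 3 of 58 (H1f6, H2bc14 and H2ac4) against 0.635% of all. The shorter AAACACA was not searched, and stands in the H1f4 sequence above and in the promoters of H1f2, H1f3 and H1f5. Matches of different motifs overlapped in 0 of 189 cases, and promoters of paired genes overlap each other and so share motifs. In the sequences above, the octamer of H2bc8 starts 59 bases before the start site and its TATAAA 43 bases before, while H4c2 holds none of the 4 motifs.

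Every one of the 63 histone genes had H3K4me3 in both experiments, and nearly all lacked both repressive marks. A gene was called marked when an island overlapped its span plus 1 kb on either side, its window, by at least 1 bp in both experiments. H3K4me3 marked 63 of 63 genes, against 63.1% of all protein-coding genes. H3K4me1 marked 57 of 63, against 62.4%, with 61 in Exp1 and 57 in Exp2. H3K27me3 marked 7 of 63, against 24.5%, and H3K9me3 marked 1 of 63, against 16.3%. The combination of H3K4me3 without H3K27me3 was found at 56 genes (background 54.5%), and H3K4me3 with H3K27me3 at 7 (background 8.63%). No gene had H3K27me3 without H3K4me3 (background 15.9%), and none had neither (background 20.9%). These counts depend on the call: where at least 50% of the window had to be covered, H3K4me3 marked 55 genes and H3K27me3 4, and 8 genes had neither (H2bc22, H2bc23, H2bc6, H2bc4, H1f6, H4c2, H2bc1 and H2ac1). With only the islands at or below their list's median p-value, H3K4me3 marked 56 genes and H3K27me3 2, and 7 genes had neither. These stricter calls were not counted over all protein-coding genes, so the backgrounds given here do not apply to them. H3K4me3 with H3K4me1 and no repressive mark was the commonest combination, at 50 of 63 genes (background 47.1%).

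**Figure D1:**
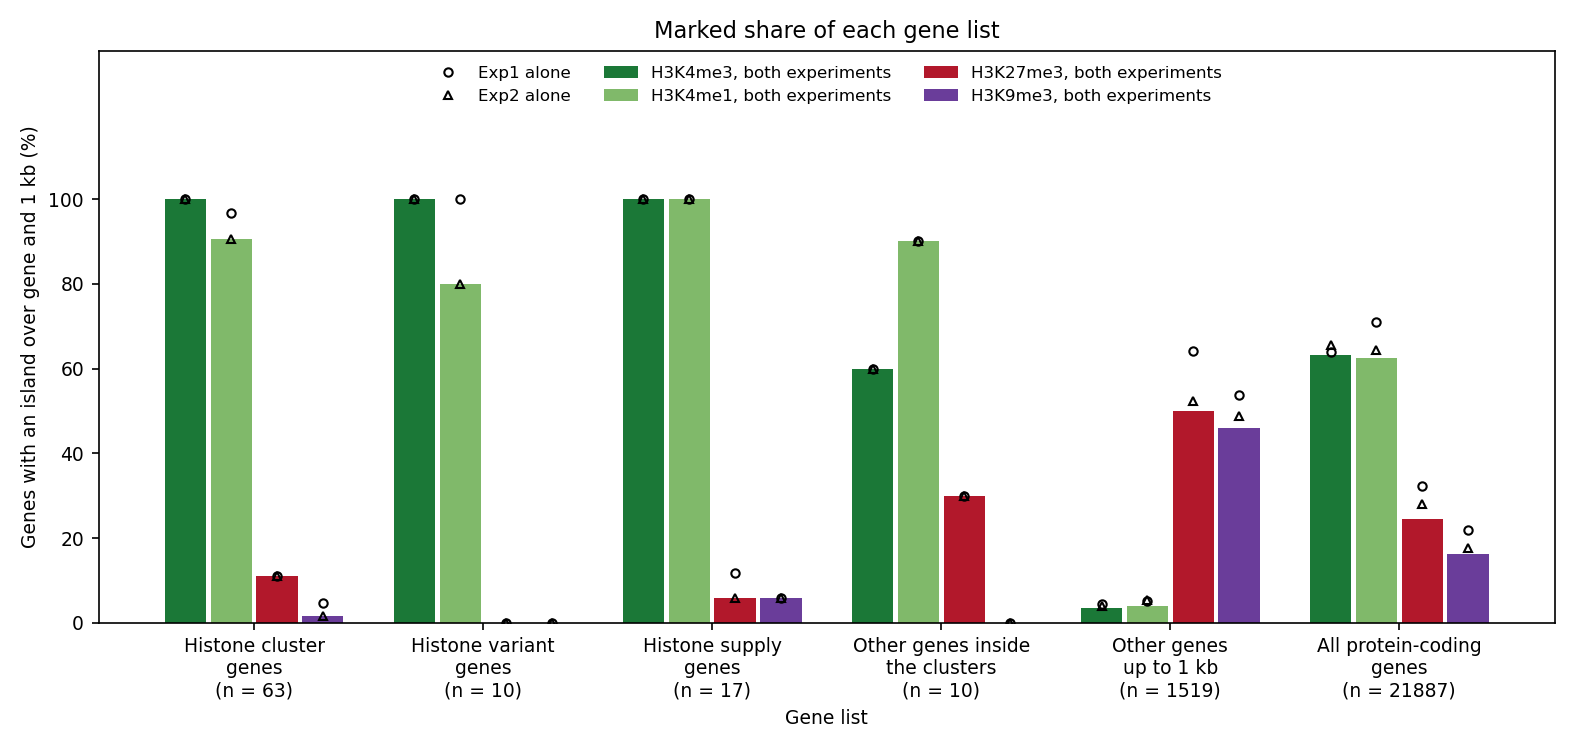
Share of genes with an island in both experiments (bars) and in Exp1 or Exp2 alone (circles and triangles), in percent, for the 63 histone genes, 10 histone variant genes, 17 histone supply genes, 10 other genes inside the clusters, 1519 other genes up to 1000 bp and all 21887 protein-coding genes. The bars of the histone genes stand at 100% for H3K4me3 and 11.1% for H3K27me3, and those of the other short genes at 3.49% and 50.1%. The 10 other genes inside the clusters include H4bc24, a histone gene outside the naming rule.

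A longer window can meet more islands, so short genes were also counted on their own. Among protein-coding genes up to 1000 bp that are not members, 53 of 1519 had H3K4me3 (3.49%) and 61 had H3K4me1 (4.02%), while 761 had H3K27me3 (50.1%) and 699 had H3K9me3 (46.0%). Olfactory receptor genes made up 783 of these 1519 genes, which limits them as a comparison. All 58 histone genes of that length had H3K4me3, 52 had H3K4me1, 6 had H3K27me3 and 1 had H3K9me3. Of the 111 protein-coding genes up to 1000 bp with H3K4me3, 58 were histone genes of these clusters. Among the 15543 protein-coding genes no longer than the longest histone gene, 55.4% had H3K4me3 and 26.7% had H3K27me3.

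The H3K4 marks covered most of the member windows, and the repressive marks little of them. H3K4me3 covered 85.5% of the average member window in Exp1 and 79.6% in Exp2 (82.6% ± 4.19, SD, n = 2). H3K4me1 covered 90.7% and 73.8% (82.2% ± 12, SD, n = 2), so the extent of this mark differed more between the experiments than that of H3K4me3. H3K27me3 covered 7.14% in each experiment. H3K9me3 covered 3.11% in Exp1 and 0.099% in Exp2 (1.6% ± 2.13, SD, n = 2), so its spread was larger than its mean. Windows of all 1577 protein-coding genes up to 1000 bp, members included, were covered by H3K4me3 to 6.1% ± 0.615 (SD, n = 2).

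**Figure D2:**
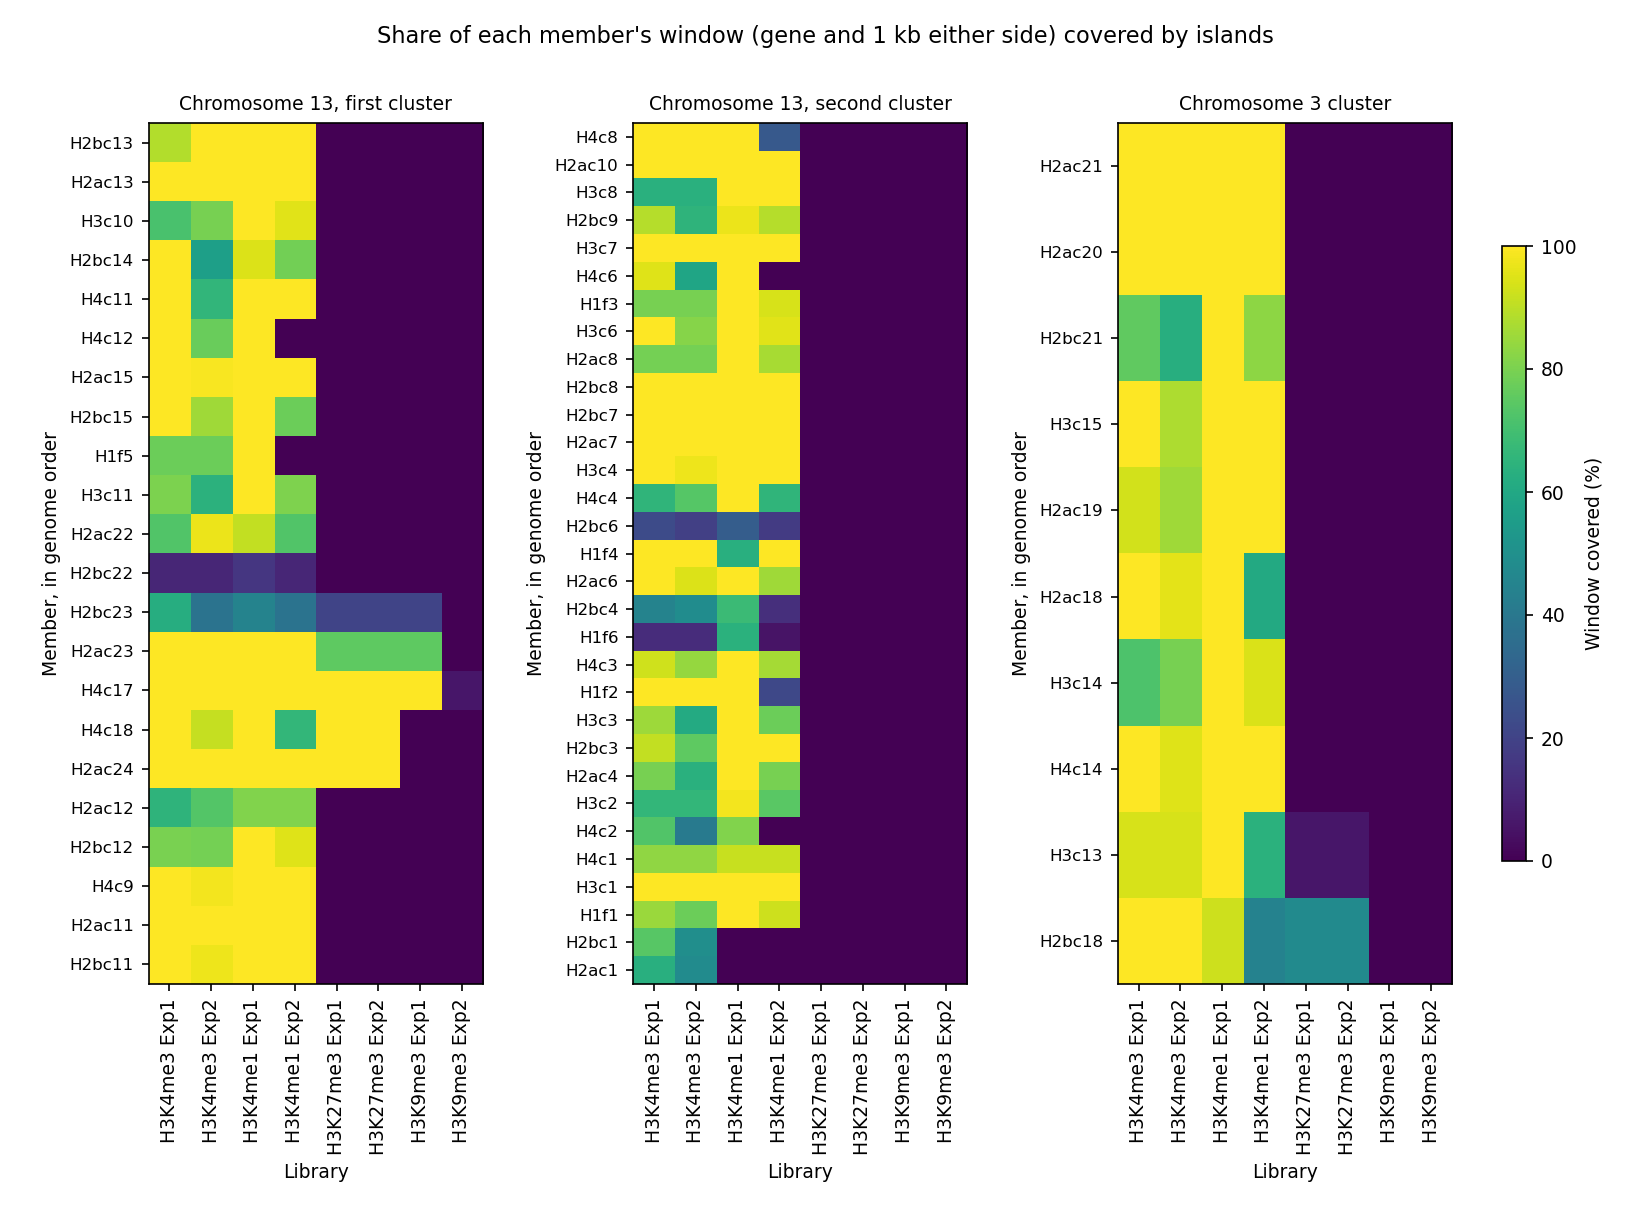
Share of each member's window (gene and 1 kb either side) covered by islands, in percent by colour, with members in genome order down each panel and the 8 libraries across. H3K4me3 is present in every row, H3K4me1 is absent in Exp2 from 6 rows, and H3K27me3 appears in 5 rows of the first chromosome 13 cluster and 2 rows of the chromosome 3 cluster.

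Most members shared an island with a neighbour, so the 63 genes are not 63 separate observations. H3K4me3 lay over them in 32 distinct islands in Exp1 and 33 in Exp2, of which 22 in each experiment spanned several members. The most crowded island lay over H2ac8, H2bc8, H2bc7, H2ac7 and H3c4 and was 7.8 kb wide in Exp1 and 7 kb in Exp2. The median width over members was 3.8 kb in Exp1 and 3.2 kb in Exp2, against 3.2 kb and 2.4 kb for the whole lists. Per gene, the widest H3K4me3 island had a median of 4.8 kb and 4 kb over members, against 3.6 kb and 3 kb over all marked protein-coding genes. By the authors' p-value, 26 of the 32 islands and 32 of the 33 ranked in the stronger part of their list, at or below its median.

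H2A and H2B genes, which encode the dimer that docks on each side of the nucleosome core, were often arranged head to head. Among the 58 members with a promoter entry there were 9 such pairs with start sites at most 1000 bp apart, at a median distance of 180 bp (164 to 281 bp). In all 9 pairs a single H3K4me3 island lay over both start sites, in each experiment. The narrowest H3K4me3 island over any member was 1.8 kb wide in Exp1 and 1 kb in Exp2, wider than these distances. A shared island therefore says little about the pairs themselves. In the pair H2ac8 and H2bc8, H3K4me3 covered 79% of the H2ac8 window in both experiments and 100% of the H2bc8 window in both. Over all 17 H2A genes H3K4me3 covered 91.3% of the window in Exp1 and 90.4% in Exp2 (90.9% ± 0.68, SD, n = 2), the highest mean of the 5 types, although H4 genes were higher in Exp1. The 16 H2B genes had 77.4% and 68% (72.7% ± 6.67, SD, n = 2), and include all 5 members longer than 1000 bp. H2bc22, 14079 bp long, was covered to 10.7% in both experiments, and H2bc6, 37455 bp long, to 23% and 18.9%. H3K4me1 marked 16 of 17 H2A and 15 of 16 H2B genes, and the exceptions were the testis pair H2ac1 and H2bc1.

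All 12 H3 genes, which encode the core histone that carries the marks measured here, had both H3K4me3 and H3K4me1. H3K4me3 covered 86.1% of their windows in Exp1 and 81.3% in Exp2, and H3K4me1 99.9% and 90.2%. H3c1, H3c7 and H3c4 were covered most fully: H3K4me3 over H3c1 and H3c7 reached 100% in both experiments, and over H3c4 100% in Exp1 and 97.4% in Exp2. The lowest single value was at H3c3, with 85.5% in Exp1 and 61.3% in Exp2, so even there most of the window was covered.

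The 12 H4 genes, which encode the partner of H3 in the core tetramer, all had H3K4me3 and differed most between experiments in H3K4me1. H3K4me3 covered 92.5% of their windows in Exp1 and 80.7% in Exp2 (86.6% ± 8.3, SD, n = 2). H3K4me1 covered 97.7% in Exp1 and 61.5% in Exp2 (79.6% ± 25.6, SD, n = 2). At H4c12 and H4c6 H3K4me1 covered 100% in Exp1 and 0% in Exp2, and at H4c2 81.1% and 0%. These 3 genes therefore kept only H3K4me3 in both experiments. H4c8 had 100% and 27.8%, whereas H4c11, H4c17, H4c9 and H4c14 had 100% in both. Fewer H3K4me1 islands were listed in Exp2, where 64.3% of all protein-coding genes were marked against 71% in Exp1, and the part of this in the H4 values was not tested. H4c2, printed above without any of the 4 motifs, had H3K4me3 over 72.9% of its window in Exp1 and 40.8% in Exp2, from islands 2 kb and 1 kb wide. The H4c8 promoter also held none of the 4 motifs. H3K4me3 covered 100% of the H4c8 window in both experiments, from islands 6 kb wide.

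The 6 H1 genes all met the call for H3K4me3, but H1f6 met it only through its flank. H3K4me3 covered 100% of the H1f4 and H1f2 windows in both experiments, 85% and 77.7% of the H1f1 window, 79.3% of the H1f3 window in both and 77.6% of the H1f5 window in both. These 5 are H1 genes of somatic tissues. H1f6, the linker histone of the male germ line, had 12.6% in both experiments. Over the 300 bp RefSeq promoter entry, 57 of 58 members had H3K4me3 in both experiments, against 58.0% of all genes with an entry, and 54 were covered end to end. The exception was H1f6: the nearest H3K4me3 island began 1390 bp downstream of its start site in both experiments (chr13:23697201-23699400 in Exp1), and is the island over its neighbour H4c3. H3K4me1 lay over 47 of 58 promoter entries in both experiments, against 42.0%, and over H1f6 it covered 20% of the entry in Exp1 and 0% in Exp2. H1f5 had H3K4me1 over 100% of its window in Exp1 and 0% in Exp2. As a group, H1 windows were covered by H3K4me1 to 87.8% in Exp1 and 52.2% in Exp2 (70% ± 25.2, SD, n = 2).

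H2bc1 and H2ac1, the testis H2B and H2A genes, lay apart from the other members at the end of the second chromosome 13 cluster, 169 kb after H1f1. They were the only members without H3K4me1 in either experiment. A single H3K4me3 island covered both start sites, 1.8 kb wide in Exp1 and 1.2 kb in Exp2, and covered 74% and 49.3% of the H2bc1 window and 63.1% and 48.4% of the H2ac1 window. The authors' p-values for it, 3.2e-12 in Exp1 and 3.9e-29 in Exp2, were the weakest of all H3K4me3 islands over members. Neither gene had a repressive mark. By the mean of both experiments, they and H4c2 had the narrowest H3K4me3 islands among the members, although in Exp1 the island over H2ac22 and H2bc22 was also 1.8 kb wide. The widest lay over H2bc23, H2ac23 and H4c17 (10 kb in Exp1 and 7.2 kb in Exp2).

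**Figure D3:**
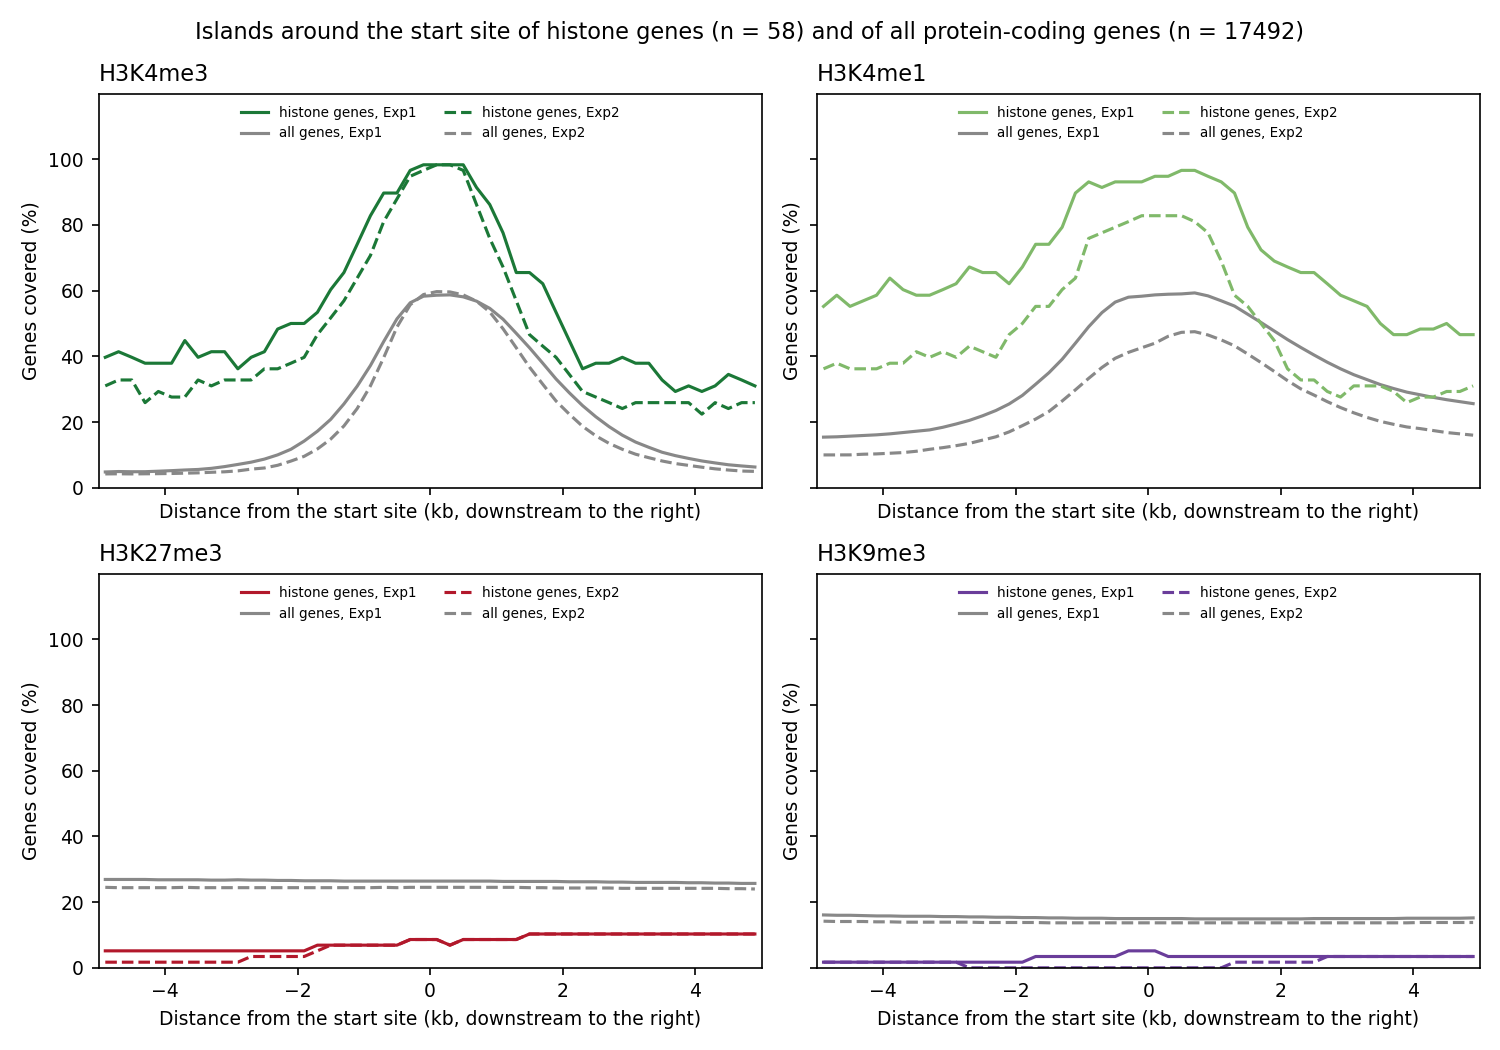
Share of genes covered by islands in 200 bp bins by distance from the RefSeq start site in kb (downstream to the right), for 58 histone genes (coloured) and 17492 protein-coding genes (grey), in Exp1 (solid) and Exp2 (dashed). At the start site 98.3% of histone genes were covered by H3K4me3 in each experiment. At 5000 bp upstream 39.7% and 31% were, against 4.8% and 4.2% of all genes, and bins there can lie over a neighbouring histone gene.

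The share of members covered by H3K4me3 was highest at the start site. At 5000 bp it was above that of all genes, but bins there can lie over a neighbouring member. In the first 200 bp downstream of the start, H3K4me3 covered 98.3% of 58 members in each experiment, against 58.6% and 59.7% of all 17492 genes with an entry. At 1000 bp upstream the values were 82.8% and 70.7% for members and 37.2% and 31% for all genes. At 5000 bp upstream they were 39.7% and 31% against 4.8% and 4.2%. H3K4me1 islands covered 94.8% and 82.8% of members at the start, and 93.1% and 75.9% at 1000 bp upstream. For all genes the values were 58.7% and 44% at the start and 49% and 33.3% at 1000 bp upstream. Island lists hold no reads, so a dip in signal within an island cannot be seen. H3K27me3 covered 8.62% of members at the start in each experiment, against 26.4% and 24.5% of all genes.

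H3K27me3 reached 7 members, through 2 islands, and the 2 cases differed in form. In the first chromosome 13 cluster, 1 island started at the same position in both experiments, inside H2bc23, and extended to 120 kb in Exp1 (chr13:21810001-21930000) and 25 kb in Exp2 (chr13:21810001-21835000). It lay over H2bc23, H2ac23, H4c17, H4c18 and H2ac24. H3K27me3 covered 100% of the H4c17, H4c18 and H2ac24 windows in both experiments, 75.2% of the H2ac23 window and 20.7% of the H2bc23 window. The authors' p-value of this island was 3.05e-49 in Exp1 and 0.000286 in Exp2, the latter above the Exp2 list's median of 2.03e-14. All 5 windows also held H3K4me3, which covered H4c17, H2ac23 and H2ac24 to 100% in both experiments, H4c18 to 100% and 91.3%, and H2bc23 to 62.2% and 38%.

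On chromosome 3, the H3K27me3 island was 260 kb wide in both experiments (chr3:96270001-96530000) and began inside H2bc18, the last gene of the cluster. It covered 47.8% of the H2bc18 window and 6.2% of the H3c13 window, in both experiments. Island edges for this mark fall on 5000 bp steps, so the position of the border is known no better than that. The other 8 chromosome 3 members, H2ac21, H2ac20, H2bc21, H3c15, H2ac19, H2ac18, H3c14 and H4c14, had no H3K27me3 in either experiment. All 10 had H3K4me3, from 62.8% (H2bc21 in Exp2) to 100% of the window, and all 10 had H3K4me1. No member of the second chromosome 13 cluster had H3K27me3 or H3K9me3.

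H3K9me3 was called at H4c17 alone, from 9 kb islands at shifted positions in the 2 experiments. In Exp1 the island (chr13:21810001-21819000) covered 100% of the H4c17 window, 75.2% of the H2ac23 window and 20.7% of the H2bc23 window. In Exp2 the island (chr13:21813001-21822000) covered 6.24% of the H4c17 window, only in the flank downstream of the gene. It did not reach the H4c17 gene itself or the windows of the other genes. With H3K4me3, H3K4me1 and H3K27me3 also called, H4c17 was the only member called for all 4 marks, and for H3K9me3 in Exp2 only through its flank.

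The 5 first-cluster genes with H3K27me3 have close copies of their promoters, and the reads were 50 bases long. Of the 58 promoter entries, 11 shared at least one 50-base stretch with the promoter of another gene, and 9 shared more than 50% of their 251 stretches. The stretches found elsewhere made up 94% for H4c17 and for H4c18, each found in the other, as the pair printed above shows. They made up 100% for H2bc23 and 86.9% for H2ac23, found at H2ac24 and H4bc24, and 73.3% for H2ac24, found at H2ac23 and H2bc23. On chromosome 3, H3c15 shared 74.1% with H3c14 and H2ac19 shared 67.7% with H2ac18, and in the first chromosome 13 cluster H4c11 shared 11.6% with H4c12. Those 6 genes had H3K4me3 and no H3K27me3. H3c13 and H2bc18 shared no stretch. How the authors treated reads with several positions is not given in the sources used here, and the part of the copies in the H3K27me3 and H3K9me3 calls was not tested. Without the 9 genes, H3K4me3 was called at 54 of 54 members, H3K27me3 at 2 and H3K9me3 at 0. The 54 include the 5 members without a promoter entry, which were not checked for copies. Sequence outside the promoter entries was not checked for any member.

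**Figure D4:**
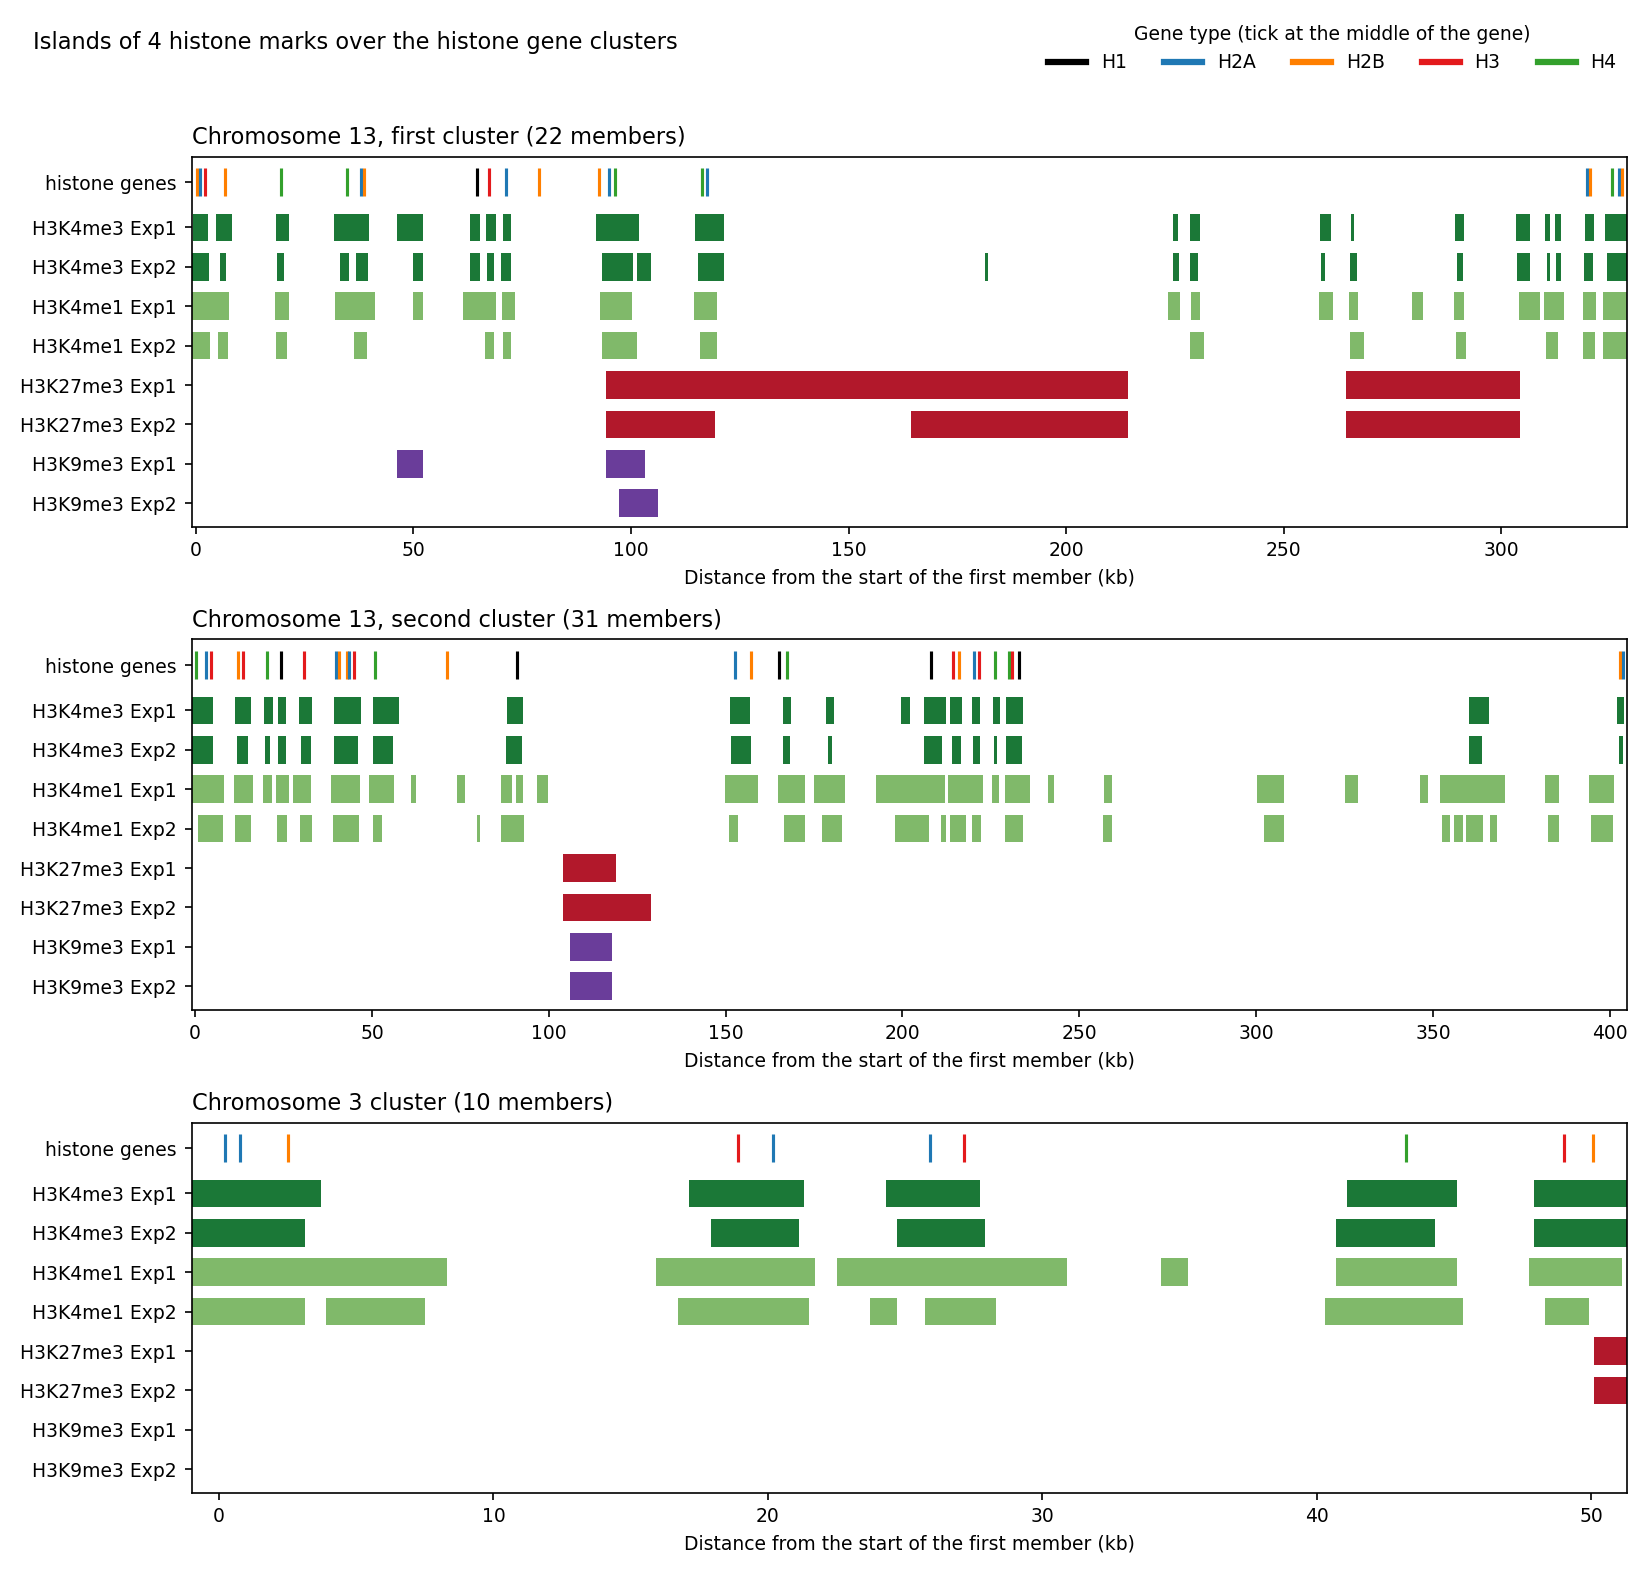
Islands of each mark in Exp1 and Exp2 along the 3 clusters, with distance in kb from the start of the first member and ticks at the histone genes coloured by type. Ticks stand at the middle of each gene. H3K4me3 islands sit at most ticks in all 3 clusters, but not at those of H1f6 and the long genes H2bc22, H2bc6 and H2bc4. Some H3K4me3 islands lie away from members in both chromosome 13 clusters. H3K27me3 islands in the first cluster lie mainly in the interval without members, with 120 kb in Exp1 and 25 kb in Exp2 starting at H2bc23. H3K4me3 covered 9.35% of that interval in Exp1 and 8.26% in Exp2.

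Domains of the repressive marks lay between the chromosome 13 clusters and on some flanks. Across the 1487 kb between both chromosome 13 clusters, which holds 41 protein-coding genes including 36 vomeronasal receptor genes (Vmn1r), H3K27me3 covered 81.4% in Exp1 and 69.9% in Exp2. H3K9me3 covered 72.8% and 54.9% of it, and H3K4me3 2.55% and 2.76%. Within the second cluster these values were 3.71% and 6.19% for H3K27me3, 2.97% in both for H3K9me3, and 19.1% and 15.1% for H3K4me3. The first cluster was mixed, with 48.8% and 35.1% of its span under H3K27me3. Most of that lay in the 202 kb between H2ac24 and H2ac12, which holds no member and was covered to 67.7% and 45.4%. On chromosome 3, H3K27me3 covered 0.382% of the cluster span in both experiments and 100% of the 200 kb after it. The flanks differed among themselves: H3K27me3 covered 85% in Exp1 and 57.5% in Exp2 of the 200 kb before the first chromosome 13 cluster and 42% and 20% of those before the second. It covered 5% in Exp1 and 0% in Exp2 of the 200 kb before the chromosome 3 cluster, and 25% and 0% of the 200 kb after the second chromosome 13 cluster. H3K9me3 covered 4.5% in Exp1 and 0% in Exp2 of the 200 kb before the chromosome 3 cluster. The values were the same for the 200 kb after the second chromosome 13 cluster. H3K9me3 cover was higher in both experiments before the first chromosome 13 cluster and after the chromosome 3 cluster. Before the second chromosome 13 cluster it was higher in Exp1 and also 0% in Exp2. In the second cluster, the gap between H1f4 and H2ac6 held an H3K27me3 island (15 kb in Exp1, 25 kb in Exp2) and a 12 kb H3K9me3 island at chr13:23637001-23649000 in both experiments, which met no member.

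Of the 10 other protein-coding genes inside the clusters, H3K4me3 marked 6, Zfp184, Pom121l2, Prss16, Hfe, Slc17a1 and H4bc24, and was absent from Trim38 and the phosphate transporter family genes Slc17a2, Slc17a3 and Slc17a4. H3K4me1 marked 9 of 10. H3K27me3 marked 3, Pom121l2 and Prss16 with 100% of the window in both experiments and H4bc24 with 100% and 39%. H4bc24 is itself a histone gene, outside the naming rule. Of other histone genes outside the naming rule, H2bu2 and H2aw on chromosome 11 had H3K4me3 over 100% of the window in both experiments. Both also had H3K27me3 over 100% in both. H4f16 on chromosome 6 had H3K4me3 over 90.2% in Exp1 and 82% in Exp2 and no H3K27me3.

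Histone variant genes, which fall outside the naming rule, also had H3K4me3 throughout. It marked 10 of 10, among them H3f3a and H3f3b, which encode H3.3, H2az1 and H2az2, which encode H2A.Z, and the linker histone H1f0. H1f0 was covered by H3K4me3 to 100% in both experiments and H2az1 to 100% and 82%. H3K4me1 marked 8 of 10, and the exceptions, H3f3b and the centromeric histone gene Cenpa, had it in Exp1 only. No variant gene had H3K27me3 or H3K9me3. Of 17 genes that make or handle histone mRNA and protein, all 17 had both H3K4me3 and H3K4me1. They include Npat, which drives histone transcription, Slbp, Lsm10 and Lsm11 of mRNA end processing, and the chaperones Nasp, Asf1a, Asf1b, Chaf1a and Chaf1b. H3K27me3 marked 1 of them, Sympk, over 5.04% of its window, and H3K9me3 marked 1, Eri1, over 38.8%, each in both experiments.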

How the data were processed

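ChIP-seq libraries of 4 histone marks from Glast+ retinal cells were grouped by mark, with Exp1 and Exp2 as the 2 replicates. Per the submitters' processing notes, the authors used SICER, bedtools 2.17, BWA 0.7.5a, SAMtools 1.3.1 and FastQC, with mm10 as the build. For the settings, the control and reads with several positions, the answer is not given in the sources used here. The authors deposited 1 island list per ChIP library, each island with a p-value and no read count, so depth is unknown and no interval was computed. Whether that deposited p-value was adjusted is not stated, and it served here only to rank or filter islands. The 2 input libraries were not analysed here.

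Genes came from the RefSeq table of GRCm38.p6 (21900 protein-coding, 21887 on chromosomes present in the lists). An island overlapping the gene span and 1 kb either side by at least 1 bp in both experiments marked a gene. Clusters are runs of members with gaps of at most 250 kb. Python 3.11.15, numpy 2.4.6 and pandas 2.3.3 were used, and the overlap code was tested on simulated data. Members, lists and motifs were chosen with earlier results of these data known. Named are the testis genes, all chromosome 3 members, members of each cluster with another than the commonest combination of marks, the first and last of each type with the commonest one, and the 3 widest and 3 narrowest H3K4me3 islands. Other genes named as extremes or examples were picked with their values in view. Alternatives were other windows, 1 experiment alone, either experiment, 50% cover and p limits. The copy check and the comparison with short genes were added after the data were seen.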

Additional observations from a re-analysis of the deposited data

How the results depend on the processing

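No paired analysis was possible because the results are counts and covered shares from no test. Of 112 alternative values for results on all members, 88 stayed within the limits set for the main value and 24 did not. Members with H3K9me3, 1 in the main count, numbered 1 to 3 with one experiment left out, 3 in either experiment, 0 with no flank, 2 with 2.5 kb flanks, 0 at 50% cover and 0 without promoter copies. Members with H3K27me3, and equally those with H3K4me3 and H3K27me3, fell from 7 to 4 at 50% cover, to 2 with islands at or below the list's median p and to 2 without copies. Members with neither H3K4me3 nor H3K27me3 rose from 0 to 1 with no flank, 8 at 50% cover and 7 at the median p. Other windows, 50% cover and p limits were not counted over all protein-coding genes, so these counts have no background. The mean cover by H3K4me3 (82.6%) was 93.5% with no flank, 62.1% with 2.5 kb flanks and 77.3% at the median p, and that by H3K4me1 (82.2%) was 68.7% with 2.5 kb flanks. The mean cover by H3K27me3 (7.14%) was 7.05% with no flank, 7.12% with 2.5 kb flanks, 7.29% at the gene ends alone, 4% at the median p and 1% without copies. The alternative without copies was chosen after seeing the data, and it kept the 5 members that had no promoter entry to check. Causes were not tested, except that narrower or stricter settings by construction count fewer islands. Island lists hold no reads, so weak signal below the authors' threshold cannot be seen, and H3K27me3 and H3K9me3 edges are known to 5000 and 3000 bp.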
